A study of Rattus norvegicus and Mus musculus with 56 samples.

Results

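The 8 genes Chat, Slc5a7, Slc18a3, Mnx1, Isl1, Prph, Ache and Calcb are markers of cholinergic motor neurons, and their messenger RNA was measured in poly(A) RNA from mouse dorsal horn of spinal segments L4 and L5. They were taken by symbol from 41388 mouse gene identifiers, and all 8 passed the filter on low counts, as did 18058 genes in all. Motor neurons lie in the ventral horn, outside the dissected region, and their markers are taken here as a measure of ventral tissue in each library. The mice were wild-type C57BL/6 with spared nerve injury (SNI), a partial cut of the sciatic nerve used as a model of neuropathic pain, or with sham surgery, and tissue was taken on postoperative day 7. The ipsilateral and contralateral sides, both surgeries and both sexes make 8 groups of 3 libraries, 24 of the 56 libraries of the series, which also holds 32 rat libraries not used here. The study asked what the injury response has in common, and what differs, in males and females of both species. The labels used here give neither the age nor the number of animals behind each library, nor any link from libraries to animals, and a p-value therefore reflects library-to-library spread, which may be technical in part.

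Motor neurons send axons out of the spinal cord to muscle and release acetylcholine there. Choline acetyltransferase, encoded by Chat, makes acetylcholine, the high-affinity choline transporter Slc5a7 supplies its choline, and the vesicular transporter Slc18a3 loads it into vesicles. The homeobox genes Mnx1 and Isl1 specify motor neurons in development. Prph encodes peripherin, an intermediate filament of neurons with peripheral axons, Ache the enzyme that breaks acetylcholine down, and Calcb the beta form of calcitonin gene-related peptide. Some of these genes are also used by other cells: Chat, Slc5a7 and Slc18a3 by cholinergic interneurons, Isl1 and Prph by sensory neurons, and Ache by many neurons that are not cholinergic. In bulk tissue, fewer cells of a type and less RNA per cell cannot be told apart.

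Gene reads per library ran from 27981829 to 42900244. Genes of dorsal horn neurons were well detected, for example Slc17a6, the vesicular glutamate transporter gene, at 206.8 to 287.2 counts-per-million (CPM) of gene reads. One library stood against its label. The injury genes Atf3 and Sprr1a, which axotomised neurons switch on, were at 15.2 to 74.5 and 20.4 to 85.4 CPM in 5 of the 6 ipsilateral SNI libraries. In the library labelled ipsilateral SNI female replicate 1 they were at 1.02 and 0.229 CPM, within the ranges of the sham and contralateral libraries. The same library had the lowest Chat, Slc5a7, Slc18a3, Prph and Calcb of all 24, and results that rest on it are given with and without it.

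On GRCm38, Chat (ENSMUSG00000021919) spans 32408203 to 32465989 of the minus strand of chromosome 14. Slc18a3 (ENSMUSG00000100241), a gene of 1 exon at 32462438 to 32464850, lies inside it on the same strand and shares 0 exon bases with it. Reads of unspliced Chat RNA over Slc18a3 could be counted on Slc18a3. Slc5a7 (ENSMUSG00000023945) is on chromosome 17 at 54273590 to 54299034, Mnx1 (ENSMUSG00000001566) on chromosome 5 at 29473034 to 29478470 and Isl1 (ENSMUSG00000042258) on chromosome 13 at 116298281 to 116309689. Prph (ENSMUSG00000023484) is on chromosome 15 at 99055174 to 99058978 and Ache (ENSMUSG00000023328) on chromosome 5 at 137287519 to 137294466. Of the exon bases of Ache, 98 overlap the predicted gene Gm42456 on the opposite strand, which is not among the identifiers in the files.

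Calcb (ENSMUSG00000030666, chromosome 7, 114718643 to 114723365) has a close copy on the same chromosome, Calca, which encodes the alpha form of the peptide. The most alike coding stretch of 90 bases, from the GENCODE vM21 transcripts on GRCm38, is shown for both because it sets how well reads of Calcb can be told from reads of Calca. Capitals mark the 3 bases that differ, and 87 of 90 (96.7%) were identical.
Calcb: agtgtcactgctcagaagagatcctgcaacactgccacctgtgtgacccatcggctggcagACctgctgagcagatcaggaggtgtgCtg
Calca: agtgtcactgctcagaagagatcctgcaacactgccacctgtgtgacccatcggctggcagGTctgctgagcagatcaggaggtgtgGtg
The first runs from 114721711 to 114722062 on the plus strand and the second from 114632512 to 114634469 on the minus strand, each across an intron. The longest run shared by any transcript of Calcb and any of Calca was 61 bases. Read length is not given in the sources used here, so the share of reads that could fall on either gene is unknown, and values of Calcb carry that limit.

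Per kilobase of exon and averaged over the 24 libraries, Ache had the highest level of the 8 genes, at 40.1 CPM per kb. Prph followed at 26.5, Slc18a3 at 11.5, Slc5a7 at 10.6, Calcb at 4.12 and Chat at 3.93 CPM per kb. The transcription factor genes were lowest, Mnx1 at 0.746 and Isl1 at 0.519 CPM per kb. The same genes varied widely between libraries. Mnx1 differed 71.3-fold between its lowest and highest library in CPM, Prph 29.1-fold, Slc18a3 26.5-fold, Calcb 17.96-fold, Slc5a7 16.9-fold and Chat 11.3-fold. Isl1 differed 3.70-fold and Ache 1.60-fold. The spread was present inside groups: the standard deviation of log2 CPM around the group means was 0.63 for Chat, 0.74 for Slc5a7, 0.83 for Slc18a3, 0.95 for Mnx1, 0.89 for Prph and 0.70 for Calcb, beside a median of 0.133 over 18058 genes. Chat had a larger spread than 99.9% of the 1000 genes nearest to it in level, and Ache, with 0.15, a larger one than 94% of its neighbours.

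Chat, taken as the reference, ran from 8.85 to 31.1 CPM (median 12.6) in the 6 ipsilateral sham libraries and from 7.21 to 30.7 (median 20.4) in the contralateral sham libraries. After SNI it ran from 3.69 to 18.4 CPM (median 9.23) on the ipsilateral side and from 15.1 to 41.6 (median 21.6) on the contralateral side. All ipsilateral SNI libraries but the highest lay below every contralateral SNI library, while the other pairs of groups overlapped broadly. Ordered by mean, the highest of the 8 groups was contralateral SNI female at 35.5 ± 10.4 CPM (SD, n = 3), followed by contralateral sham female at 24.4 ± 7.51. Ipsilateral sham female (17.8 ± 9.45), contralateral SNI male (17.6 ± 2.34), ipsilateral sham male (16.8 ± 12.4), contralateral sham male (15.7 ± 8.79) and ipsilateral SNI male (14.3 ± 3.73) came next and were within each other's spread. Ipsilateral SNI female was lowest at 5.58 ± 1.84 CPM, and its highest library, at 7.36, was below the lowest of ipsilateral SNI male, at 11.1.

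**Figure D1:**
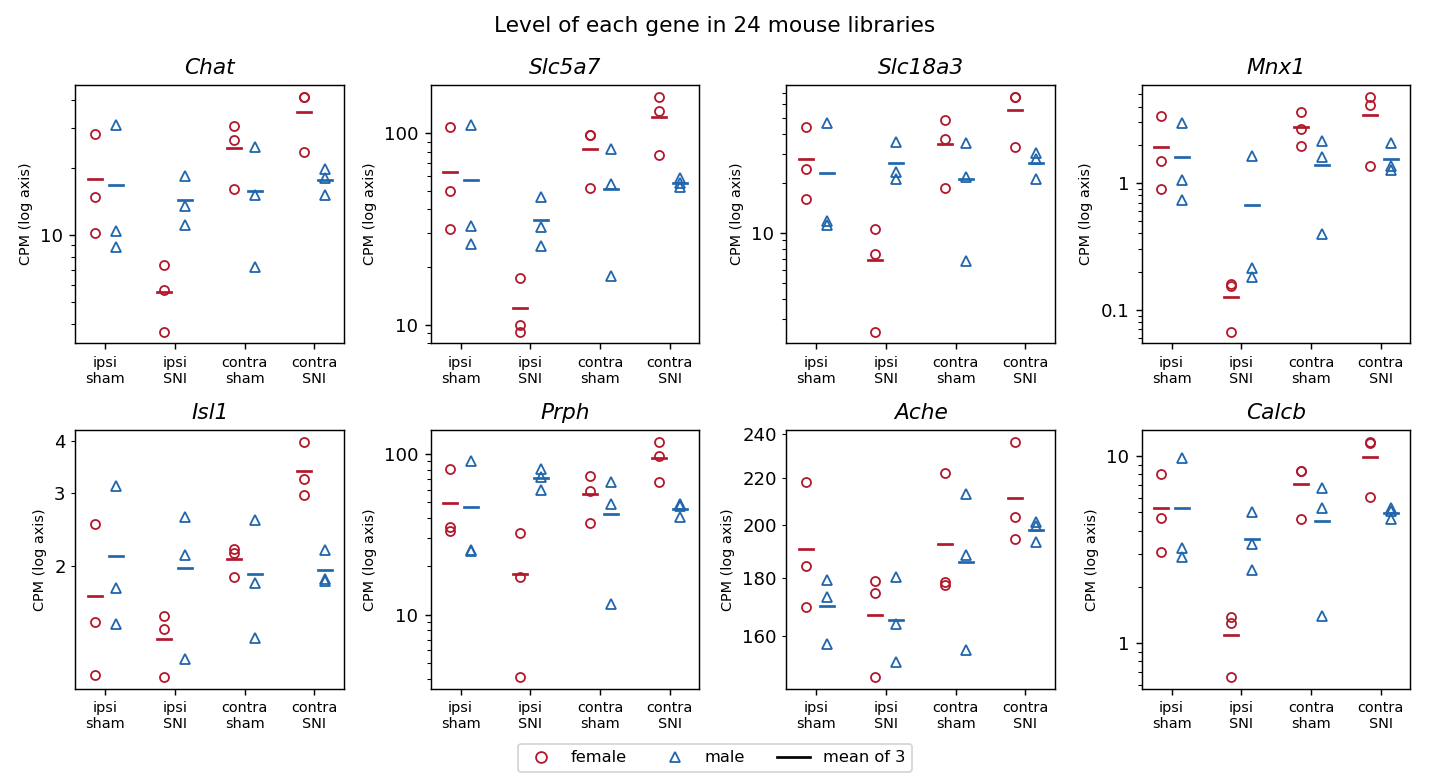
Level of the 8 genes in CPM (logarithmic axis) in each of 24 mouse libraries, by side and surgery. Circles are female and triangles male libraries, and bars are means of 3. The 3 ipsilateral SNI female libraries are the lowest for Slc5a7 and Mnx1, and Ache differs 1.60-fold at most.

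The first question was whether the markers differed between SNI and sham on the operated side. The 12 ipsilateral libraries were fitted alone. All 8 estimates were below 0, from -0.12 for Ache to -2.39 for Mnx1 on the log2 scale. None passed the adjusted threshold of 0.05 in limma over 17602 genes. At an unadjusted p under 0.05 there were 3 of the 8, beside 2130 of all genes. With limma's voom weights 0 of the 8 were called, beside 339 of all genes. Without those weights 2.07% of all genes were called and 0.131% were called lower. Over the 8 genes the median log2 fold change was -0.81, beside -0.0025 over all genes. The 5 red blood cell genes stood as low in this comparison, at -0.95 to -0.84 with none called, and their summed level was 56.4 to 184.6 CPM in ipsilateral SNI and 83.7 to 469.1 CPM in ipsilateral sham libraries. Their part in the result was not tested.

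Mnx1 came closest to the threshold. It had 6, 6, 6, 6 and 2 reads in 5 ipsilateral SNI libraries and 52 reads in ipsilateral SNI male replicate 3, against 23 to 110 reads in the 6 ipsilateral sham libraries. In CPM the 5 libraries lay at 0.0673 to 0.213 and the sixth at 1.63, beside 0.737 to 3.38 in the sham libraries, so that the groups overlapped through a single library. The log2 fold change was -2.39 (SE 0.54, adjusted p = 0.0545 in limma). Leaving out ipsilateral SNI male replicate 3 gave -2.85 with an adjusted p of 0.00143, and leaving out ipsilateral SNI female replicate 1 gave -2.44 with 0.109. Of the remaining genes, Slc5a7 stood at -1.33 (SE 0.45, adjusted p = 0.269), Calcb at -1.26 (SE 0.37, adjusted p = 0.166) and Chat at -0.81 (SE 0.39, adjusted p = 0.457) in limma.

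On the contralateral side all 8 estimates lay above 0, from 0.12 for Ache to 0.66 for Slc18a3, and none was called (0% of 17580 genes called by limma, 0 with voom weights, 336 genes and, of the 8, Isl1 alone at an unadjusted p under 0.05). Between the sides of sham mice the estimates ran from -0.25 for Chat to -0.03 for Prph, again with no call among the 8 or among all genes (0% in limma, 0 with voom weights), 742 genes and 0 of the 8 being at an unadjusted p under 0.05.

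The sides were also compared within SNI mice. Of the 8 genes, 5 were called lower on the ipsilateral side by limma: Chat, Slc5a7, Mnx1, Ache and Calcb. Over 18058 genes 6.85% were called in this comparison and 3.29% were called lower, and the median log2 fold change was -1.54 over the 8 genes and 0.004 over all. Leaving out ipsilateral SNI female replicate 1, 4 of 8 were called lower, beside 1.74% of all genes, and Chat was lost. With voom weights and all libraries, 5 of 8 were called, beside 1242 of all genes.

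Slc5a7 ran from 9.17 to 46.7 CPM (median 21.7) in the ipsilateral SNI libraries and from 52.7 to 155.4 (median 67.7) in the contralateral SNI libraries. The ranges did not overlap. Its log2 fold change was -2.00 (SE 0.42, adjusted p = 0.00849 in limma), a 4.01-fold lower level, and stayed called when any single library was left out (-2.15 to -1.90).

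Mnx1 ran from 0.0673 to 1.63 CPM (median 0.171) against 1.27 to 4.79 (median 1.71), with only ipsilateral SNI male replicate 3 inside the contralateral range. Its log2 fold change was -2.90 (SE 0.53, adjusted p = 0.00228 in limma), and leaving out single libraries gave -3.35 to -2.65, all called. Calcb lay at 0.663 to 5.01 CPM against 4.61 to 11.9, with 5 of 6 ipsilateral libraries below all contralateral ones. It stood at -1.80 (SE 0.39, adjusted p = 0.0102 in limma).

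Chat differed by -1.49 (SE 0.36, adjusted p = 0.0196 in limma). Its call was lost without ipsilateral SNI female replicate 1 (-1.36, adjusted p = 0.0545), without ipsilateral SNI male replicate 2 (adjusted p = 0.053) and without contralateral SNI female replicate 3 (adjusted p = 0.0612). Ache, the enzyme gene, ran from 147.6 to 180.3 CPM on the ipsilateral and from 193.4 to 236.5 on the contralateral side. These ranges did not overlap either, although the difference was small, at -0.30 (SE 0.08, adjusted p = 0.0268 in limma), and leaving out 6 of the 24 libraries, 1 at a time, raised its adjusted p above the threshold (up to 0.108). How many of all genes had ranges that did not overlap was not counted.

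The 3 genes that were not called had the same sign: Slc18a3 at -1.59 (SE 0.48, adjusted p = 0.0557), Isl1 at -0.68 (SE 0.22, adjusted p = 0.0589) and Prph at -1.08 (SE 0.51, adjusted p = 0.244) in limma. Leaving out 1 library at a time, Slc18a3 and Isl1 were each called in 4 of 24 fits, with adjusted p from limma down to 0.0328 and 0.0316, and Slc18a3 was also called without robust empirical Bayes (adjusted p = 0.0238). The difference of the side differences between SNI and sham was itself tested. It was below 0 for all 8, from -0.24 for Ache to -2.68 for Mnx1, and none was called, beside 0.637% of all genes. At an unadjusted p under 0.05 there were 5 of the 8 and 1016 of all genes. Voom weights called 0 of the 8 and 98 of all genes. Without ipsilateral SNI male replicate 3 this difference was called for Mnx1 (-3.14, adjusted p = 0.0194 in limma). With the 16 libraries titled 33 to 48 alone, the side difference after SNI was -1.36 for Chat, -1.90 for Slc5a7, -3.02 for Mnx1 and -2.04 for Calcb, none called, with 175 genes called in all. The libraries titled 49 to 56 hold 2 male SNI libraries a side but 1 female SNI and 1 female sham library a side, and were not fitted alone.

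The side difference after SNI was also estimated in each sex, within the same fit of 24 libraries, a split made after the values had been seen. Its standard errors therefore draw on the spread of all groups. The estimates were larger in females. In female SNI mice Chat was at 3.69, 7.36 and 5.68 CPM on the ipsilateral side and at 23.4, 41.5 and 41.6 on the contralateral side. In male SNI mice it was at 13.5, 11.1 and 18.4 CPM against 15.1, 19.7 and 18.01. The female sides were far apart and the male sides overlapped. Slc5a7 was at 9.17, 17.6 and 9.95 CPM against 77.2, 155.4 and 131.2 in females, and at 32.5, 25.9 and 46.7 against 52.7, 54.9 and 58.2 in males, apart in both sexes but by less in males.

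In females 7 of 8 genes were called lower by limma, all but Ache, with log2 fold changes between -4.08 (Mnx1, SE 0.74, adjusted p = 0.00315) and -1.32 (Isl1, SE 0.30, adjusted p = 0.00893). Of all genes 10.8% were called in females and 5.65% called lower. Without ipsilateral SNI female replicate 1, which leaves 2 ipsilateral libraries, 6 of 8 were called lower, beside 1.89% of all genes, and Chat stood at -2.39 (SE 0.57, adjusted p = 0.0288). In males none of the 8 was called (1.79% of all genes called, 0.0111% called lower), 2 had an unadjusted p under 0.05, beside 1513 of all genes, and estimates ran from -1.72 for Mnx1 to 0.63 for Prph. The difference between the sexes was tested directly. It was -2.34 (SE 0.72, adjusted p = 0.147 in limma) for Chat and -3.43 (SE 1.01, adjusted p = 0.137) for Prph. None of the 8 was called there, and 0.00554% of all genes (1 gene) were called, so a difference between the sexes did not pass the adjusted threshold. Of the 8, 7 had an unadjusted p under 0.05, beside 2696 of 18058 genes. Without ipsilateral SNI female replicate 1 there were again 7 of 8, beside 1828 of 18026 genes. Averaged over sides and surgeries, female minus male estimates ran from -0.12 for Prph to 0.26 for Mnx1, none called, beside 0.537% of all genes. At an unadjusted p under 0.05 there were 0 of the 8 and 1512 of all genes. Voom weights called 0 of the 8 and 90 of all genes. The surgery by sex interaction on the ipsilateral side called no gene (0%; 0 with voom weights; 1793 genes and 3 of the 8 at an unadjusted p under 0.05), with Slc18a3 at -2.63 and Prph at -2.64.

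**Figure D2:**
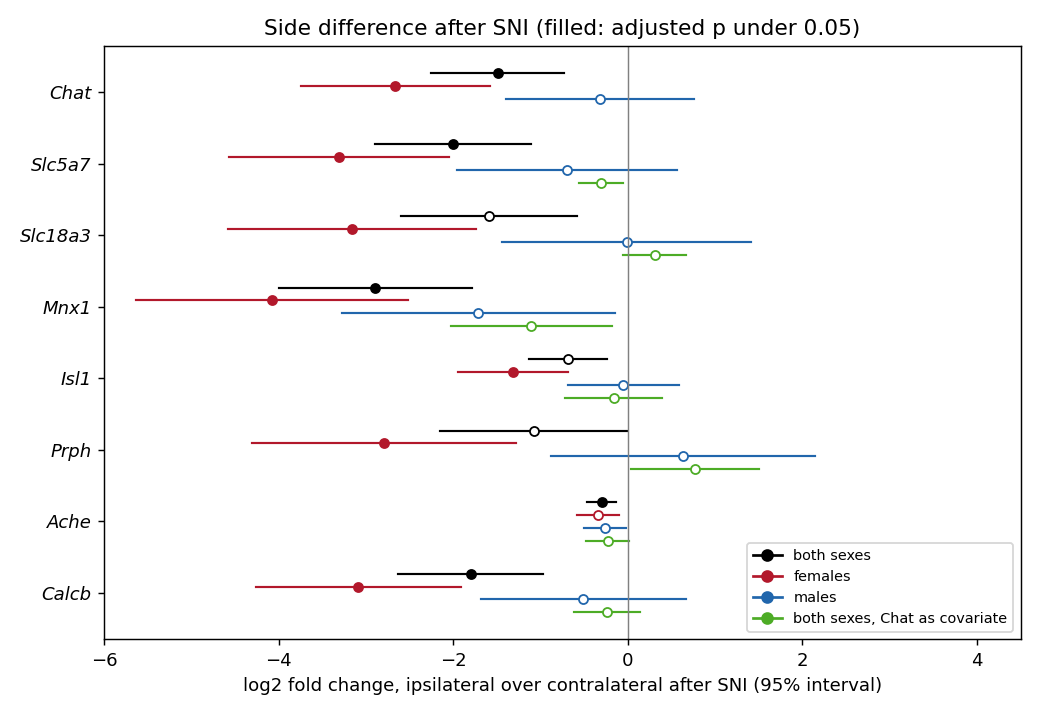
Log2 fold change of the ipsilateral over the contralateral side after SNI for each gene, with 95% intervals, in both sexes, in females, in males and in both sexes with the Chat level as a covariate. Filled points passed the adjusted threshold. Female estimates lie left of male estimates for every gene, and the estimates with the covariate lie between -1.11 and 0.77.

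The genes moved together from library to library. Over 24 libraries, Pearson's r of log2 CPM with Chat was 0.98 for Slc5a7, 0.97 for Slc18a3 and for Calcb, 0.89 for Prph and 0.88 for Mnx1. Spearman's rho was 0.97, 0.96, 0.96, 0.87 and 0.92 in the same order. The permutation p, from 100000 two-sided resamples, was the smallest they can give for these 5 (1e-05, 1.4e-05 adjusted over 7 relations). Isl1 followed at 0.73 (rho 0.75, permutation p = 6e-05, adjusted 7e-05) and Ache at 0.52 (rho 0.55, permutation p = 0.00929, adjusted 0.00929).

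The relation was present inside groups as well. With each group's mean subtracted, r was 0.98 for Slc5a7, 0.96 for Slc18a3, 0.94 for Calcb, 0.89 for Prph, 0.80 for Mnx1, 0.54 for Isl1 and 0.19 for Ache. Without the 2 libraries farthest from the median of Chat, both ipsilateral SNI female and one of them replicate 1, r stayed between 0.58 for Ache and 0.98 for Slc5a7. It was 0.99 for Slc5a7 within the 16 libraries titled 33 to 48 and 0.99 within the 8 titled 49 to 56, and for Mnx1 it was 0.87 and 0.94. Libraries that share an animal are not independent, and which do is not stated.

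**Figure D3:**
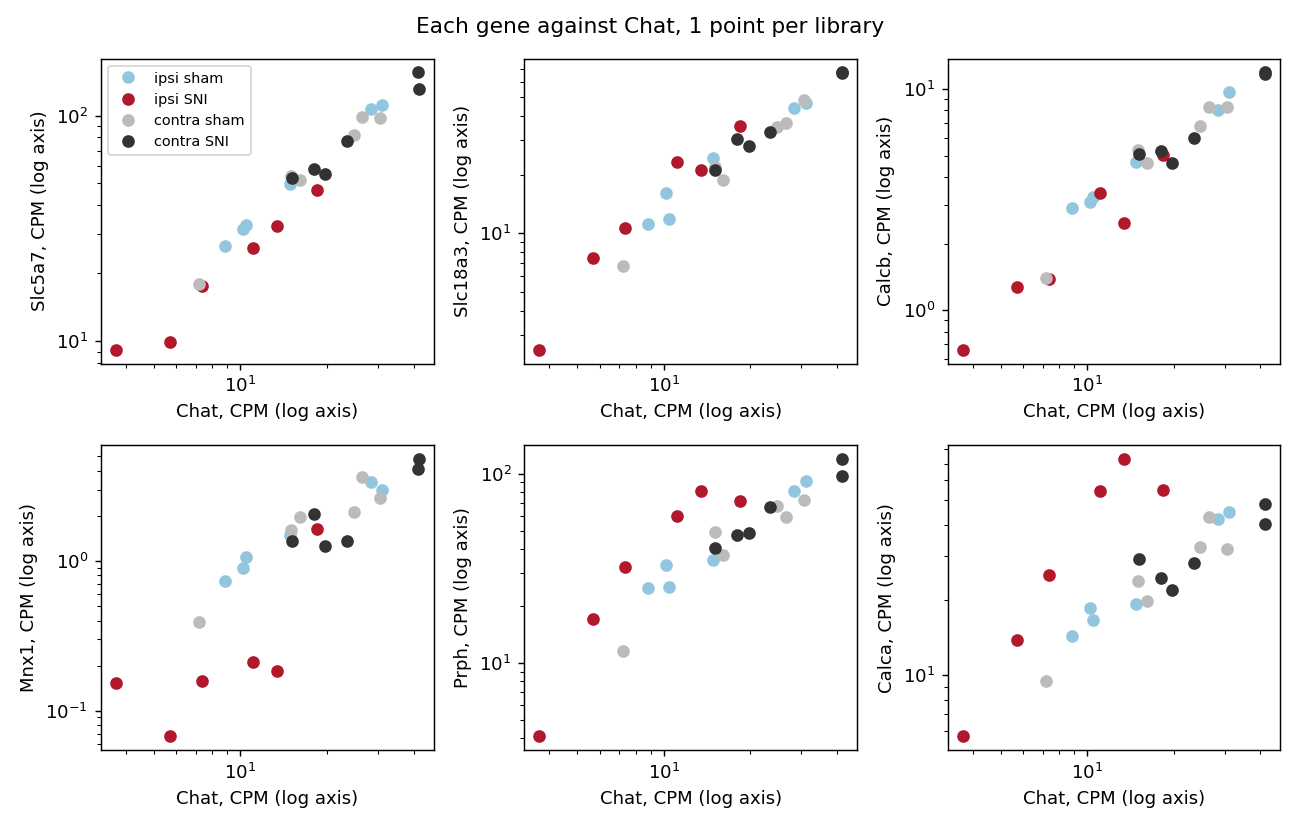
Level of 6 genes against Chat, both in CPM on logarithmic axes, 1 point per library, coloured by side and surgery. Slc5a7, Slc18a3 and Calcb follow Chat over all libraries. For Mnx1, 5 of the 6 ipsilateral SNI points lie under the other libraries, and for Calca 5 lie above the other libraries at a like level of Chat.

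Since most of the markers varied with Chat, each was also expressed as reads per 100 Chat reads in the same library, a description without a test that was added after the values had been seen. Mnx1 had 5.46 to 13.7 reads per 100 Chat reads in the 18 libraries that were not ipsilateral SNI. In ipsilateral SNI it had 1.18 to 8.84 (median 2.04), and 5 of 6 libraries were below all 18 others. Slc5a7 had 247.9 to 377.8 in the 18 libraries and 175.2 to 253.7 in ipsilateral SNI, with 17 of the 18 above every ipsilateral SNI library. The ipsilateral SNI range of Slc18a3 enclosed that of the other libraries, with medians of 150.7 in ipsilateral SNI and 143.7 elsewhere, and its ipsilateral SNI libraries ran from 68.3 to 209.9, beside 93.7 to 168.9.

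Calca, the paralog of Calcb, went the other way. It had 96.6 to 193.4 reads per 100 Chat reads in the 18 libraries. In the 5 ipsilateral SNI libraries with raised Atf3 it had 243.8 to 542.3, above all of them, and 154.5 in ipsilateral SNI female replicate 1. Calcb had medians of 20.6 in ipsilateral SNI and 28.9 elsewhere, with 3 of 6 ipsilateral SNI libraries below all 18. Prph was above all 18 others in 4 of 6 ipsilateral SNI libraries, with 301.8 to 602.7 reads per 100 Chat reads when female replicate 1 is left out and 160.9 to 325.4 in the 18. In female replicate 1 itself it was at 111.0, below all 18. Isl1 had medians of 19.3 in ipsilateral SNI and 10.7 in the 18, with 2 of 6 libraries above all 18 and 1 below. Ache had medians of 1815.0 and 1023.5, with 2 of 6 libraries above all 18 and 0 below. Without female replicate 1 the ipsilateral SNI medians were 19.2 for Isl1 and 1625.2 for Ache.

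**Figure D4:**
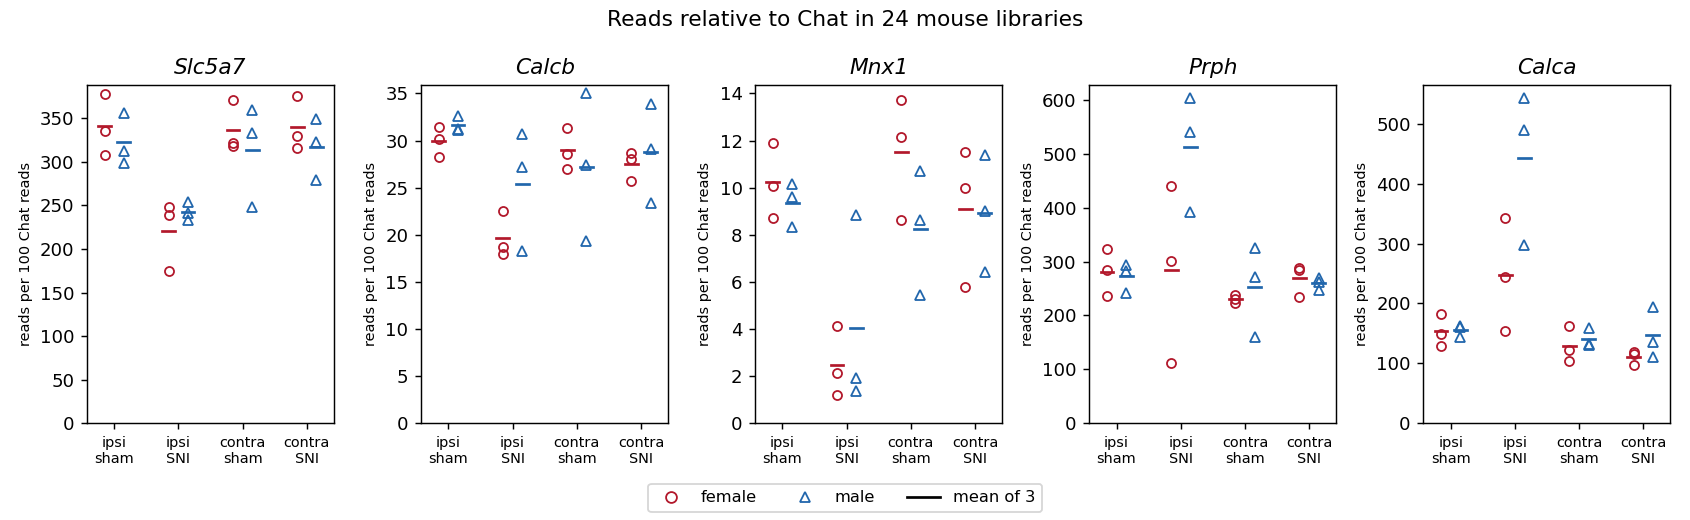
Reads of 5 genes per 100 Chat reads in each of 24 libraries, by side and surgery, on axes that start at 0. Circles are female and triangles male libraries, and bars are means of 3. In ipsilateral SNI, Slc5a7 and Mnx1 lie low in both sexes apart from 1 male Mnx1 point, and Prph and Calca lie high in most libraries.

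The same question was put to the linear model by adding the Chat level of each library as a covariate, likewise after the values had been seen. Between the sides of SNI mice, none of the 7 other markers was then called by limma, and 1.86% of 18057 genes were called. At an unadjusted p under 0.05 there were 3 of the 7, beside 1669 of all genes. Slc5a7 stood at -0.30 (SE 0.12, adjusted p = 0.388), Mnx1 at -1.11 (SE 0.44, adjusted p = 0.392), Calcb at -0.24 (SE 0.18, adjusted p = 0.77) and Ache at -0.23 (SE 0.12, adjusted p = 0.571). Slc18a3 (0.31) and Prph (0.77) changed sign without a call. For SNI against sham on the ipsilateral side, where 1.8% of 17601 genes were called, Slc5a7 was called at -0.42 (SE 0.09, adjusted p = 0.0335 in limma), and also without ipsilateral SNI female replicate 1 (-0.45, adjusted p = 0.00239). Calca was called between the sides of SNI mice at 1.26 (SE 0.28, adjusted p = 0.0279 in limma), against -0.16 without the covariate, and at 1.30 (adjusted p = 0.00475) without that library. Chat itself differed between the sides, so the covariate takes up part of the side difference as well, and the median standard error rose from 0.0747 to 0.101.

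The covariate bore unevenly on the 2 directions. Of 594 genes called lower on the ipsilateral side of SNI mice, 1 was called lower with Chat in the model, and of 643 called higher 278 were. Without ipsilateral SNI female replicate 1, the genes called lower were 313, of which 1 was called lower with Chat in the model. Across genes, the median Pearson's r with the mean of standardised Chat, Slc5a7 and Slc18a3 was 0.66 for the 594 genes, -0.42 for the 643 and -0.008 for all 18058, as a description, since groups and correlation rest on the same libraries.

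Other motor neuron genes were also lower on the ipsilateral side after SNI. Of 18 on a separate list, 10 were called lower (3.29% of all genes) and 7 without ipsilateral SNI female replicate 1 (1.74% of all genes), with medians of -0.65 and -0.62, beside 0.004 and 0.005 over all genes. With all libraries, 16 of the 18 estimates were below 0, while Aldh1a2 (0.36) and Fbn2 (0.24) lay above 0. The 10, named because they were called, were Uts2 (-3.29), Chodl (-2.35), Uts2b (-2.34), Vipr2 (-2.32), Isl2 (-1.68), Lhx4 (-1.57), Esrrb (-0.69), Esrrg (-0.60), Sv2b (-0.50) and Bcl6 (-0.43). Chodl marks fast motor neurons, Esrrb and Esrrg are nuclear receptor genes of gamma motor neurons, and Isl2 and Lhx4 are LIM homeobox genes of the motor neuron lineage. With Chat in the model none was called lower and 1, Calca, was called higher. On a list of neurofilament genes, Nefl (-0.65), Nefm (-0.84), Nefh (-0.81) and Ina (-0.20) were all called lower, and 1 of 4 without ipsilateral SNI female replicate 1. The shares of all genes called lower were 3.29% and 1.74%. Spp1, abundant in motor neurons but also in myeloid cells, stood at -0.48 (adjusted p = 0.396) and Tns1 at -0.55 (adjusted p = 0.113), neither called in limma. Tns1, Sv2b and Spp1 were the highest of the list, at 125.3, 115.4 and 87.0 CPM.

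Other genes linked to choline or acetylcholine were taken next. None of 7 genes of choline handling or of cholinesterases and their anchors was called between the sides of SNI mice, with a median of 0.03. Among them were the choline transporter-like genes Slc44a1 (0.05) and Slc44a2 (0.10), the choline kinase gene Chka (0.03) and the butyrylcholinesterase gene Bche (0.03). Colq, which encodes the collagen tail that anchors acetylcholinesterase, stood lowest at -0.71 (adjusted p = 0.101 in limma). For the side difference in females 1 of the 7 was called lower (5.65% of all genes), and 0 without ipsilateral SNI female replicate 1 (1.89% of all genes). Of 14 acetylcholine receptor genes, 1 was called lower, the muscarinic receptor gene Chrm2 (-0.42, adjusted p = 0.00339), and 1 higher, the nicotinic subunit gene Chrna3 (0.32, adjusted p = 0.0398), both in limma, the second of which was not called without ipsilateral SNI female replicate 1, beside 6.85% of all genes called in either direction. For the side difference in females 4 were called higher and 1 lower, beside 10.8% of all genes, and without that library 3 higher and 1 lower, beside 4.66%. Chrnb2 (-0.04) and Chrna4 (-0.13), with Chrm2 the most abundant receptor genes at 64.4, 56.5 and 85.4 CPM, were not called.

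Lists of other cell types were set beside Chat. The mean log2 CPM of 12 ventral interneuron genes had r = 0.65 with Chat (rho 0.60, permutation p = 0.00065, adjusted over 9 lists 0.00146), and 0.41 within groups. It was 0.64 in the 16 libraries titled 33 to 48 and 0.65 in the 8 titled 49 to 56. Of these 12, 4 were called lower after SNI on the ipsilateral side, among them Evx1 (-1.33), Sox14 (-1.29) and Foxp2 (-0.69), while Gata2 stood at -0.04. All 12 estimates were also below 0 between the sides of sham mice, with a median of -0.36 and none called, and the median was -0.67 after SNI and -0.07 for SNI against sham on the ipsilateral side. The share of all genes called lower after SNI was 3.29%. Without ipsilateral SNI female replicate 1, 3 were called lower, beside 1.74% of all genes. The 4 neurofilament genes had r = 0.95 (rho 0.94, permutation p = 1e-05, adjusted 3e-05), the smallest p the resamples can give, and 0.95 and 0.96 within those title ranges.

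Genes of dorsal horn neurons ran against Chat. For 14 genes of excitatory neurons r was -0.81 (rho -0.83) and for 10 genes of inhibitory neurons -0.79 (rho -0.77), each with permutation p = 1e-05 (adjusted 3e-05), and within groups -0.75 and -0.68. In libraries titled 33 to 48 they were -0.84 and -0.85, and in those titled 49 to 56 -0.76 and -0.85. After SNI 3 of the 14 were called higher on the ipsilateral side, the homeobox genes Tlx3 (0.54) and Lmx1b (0.37) and the peptide gene Grp (0.47), and 4 of the 10, Npy (0.84), Pdyn (0.50), Penk (0.31) and Lbx1 (0.31), beside 3.56% of all genes called higher. Their most abundant members, Slc17a6 (-0.07), Reln (0.05), Calb2 (-0.27), Slc6a5 (-0.31), Gad1 (0.05) and Slc32a1 (-0.19), were not called. With Chat in the model Npy alone was called (0.54, adjusted p = 0.0239 in limma), and it was the 1 gene of these lists called for SNI against sham (0.55, adjusted p = 0.0254), a call lost without ipsilateral SNI female replicate 1 (adjusted p = 0.0553). Between the sides of SNI mice, 2 of 14 and 3 of 10 were called higher without that library, beside 3.18% of all genes.

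The relation with Chat did not pass an adjusted permutation p of 0.05 for the remaining lists: ependymal genes (r = -0.38, adjusted p = 0.118), oligodendrocyte genes (0.24, 0.286), Schwann cell genes (0.33, 0.167), red blood cell genes (0.26, 0.277) and sensory neuron genes (0.05, 0.835). For Schwann cell genes r was 0.61 in libraries titled 33 to 48 and -0.25 in those titled 49 to 56. Taken by side, without a test, r had opposite signs for 2 of these lists. In ipsilateral and contralateral libraries it was 0.70 and -0.45 for red blood cell genes and 0.50 and -0.31 for sensory neuron genes. It was 0.57 and 0.32 for oligodendrocyte, 0.30 and 0.19 for Schwann cell, and -0.57 and -0.59 for ependymal genes. The summed Schwann cell level was 438.0 to 2525.7 CPM over the libraries. Of the 9 sensory neuron genes 5 passed the filter on low counts, and the defining genes Scn10a and Mrgprd averaged 0.0308 and 0.00235 CPM. Summed sensory neuron levels were 17.9 to 24.8 CPM in ipsilateral SNI and 13.2 to 19.9 in contralateral SNI. Pou4f1, at a mean of 14.4 CPM, made up most of these sums, and P2rx3 followed at 2.22 CPM. Between the sides of SNI mice Pou4f1 alone of the 5 was called, higher at 0.36 (adjusted p = 0.0106 in limma), beside 3.56% of all genes called higher. The sums therefore mainly follow that 1 gene. The part of any of these cells, or of the depth of dissection, in the differences between groups was not tested.

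**Figure D5:**
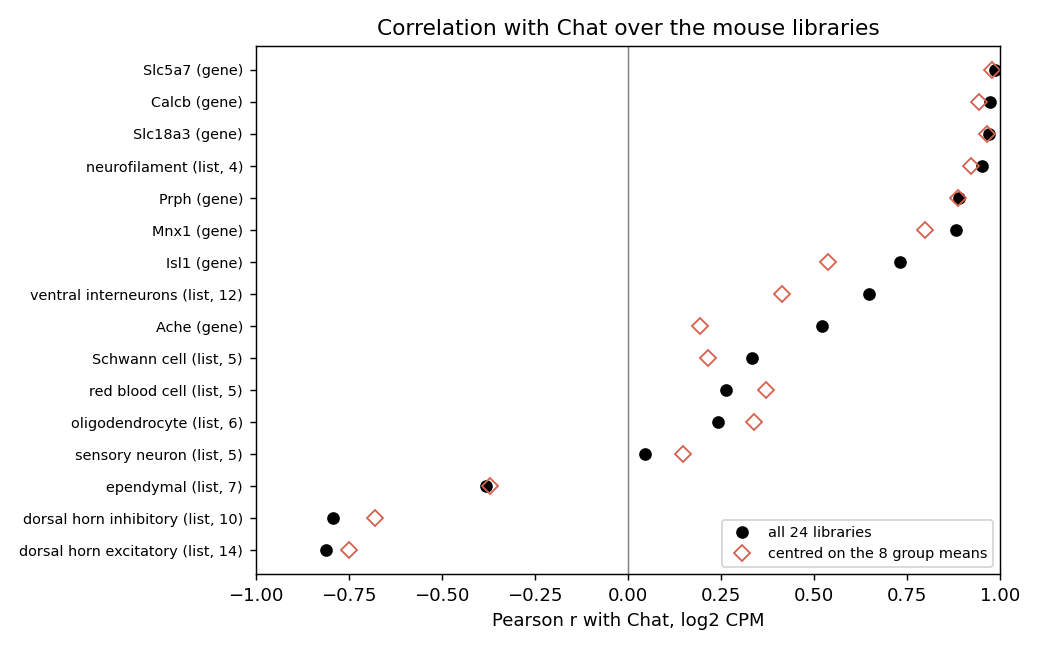
Pearson's r with Chat over 24 libraries for the 7 other markers and for the mean log2 CPM of 9 lists (number of genes in brackets). Filled circles use all libraries and open diamonds the values centred on the 8 group means. Cholinergic markers and neurofilament genes lie at the right, at 0.73 or more apart from Ache, and dorsal horn neuron genes at the left, near -0.8.

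The genes outside the 8 whose pattern was most like the mean of standardised Chat, Slc5a7 and Slc18a3 over the 24 libraries were Isl2 (r = 0.96), Nefh (0.96), the transporter gene Slc10a4 (0.96), Nefl (0.95), the vitamin D receptor gene Vdr (0.95), Uts2b (0.95), Fstl1 (0.95), Acly, the enzyme that makes cytosolic acetyl-CoA (0.95), Lhx4 (0.95) and the growth factor gene Fgf1 (0.95). Of the 8 markers, Calcb had r = 0.98 with that mean, Prph 0.91, Mnx1 0.88, Isl1 0.71 and Ache 0.50. In all, 41 of 18058 genes (0.227%) reached 0.9, the 3 genes of the mean included, and 200 (1.11%) reached 0.8.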

How the data were processed

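Poly(A) RNA of 24 mouse libraries was analysed. The deposited files hold read counts, whole numbers per gene identifier, with no normalization by the authors that the files show. The submitters' processing notes name STAR, GRCm38 and mm10; the sources used here state no counting program, strand setting or annotation. Entries outside genes, 23.9% to 28.6%, were left out. Gene reads were scaled by trimmed means (30% and 5% trimmed), and genes with about 10 counts in 3 libraries and 15 in all were kept. Log2 CPM (prior count 2) were tested in limma 3.58.1 (R 4.3.3, trend, robust, two-sided), Benjamini-Hochberg adjusted over all genes and called under 0.05. Comparisons between sides or sexes, and the side by surgery interaction, used 24 libraries and 8 group means. SNI against sham, and surgery by sex on the ipsilateral side, used the 12 libraries of the side concerned and 4 group means. Scripts were tested on simulated data. Tables and permutations used Python 3.11.15, numpy 2.4.6, pandas 2.3.3, scipy 1.17.1 and matplotlib 3.10.9. Gene positions come from GENCODE vM21.

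Beside the 8 genes, those named are the 10 most like them, list members called for SNI against sham on the ipsilateral side, the 3 highest of a list, Atf3, Sprr1a and Calca; others were chosen after their values were seen, and some list members are not reported here. Members and lists were chosen with earlier results of these data known. A planned motif search in mouse promoters was not run, as mouse promoter sequence was not used here. Alternatives covered scaling, filter, prior count, voom weights, empirical Bayes, the libraries in the fit and each library left out.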

Additional observations from a re-analysis of the deposited data

How the results depend on the processing

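No paired analysis was possible because the labels give the mouse libraries no replicate numbers and link none to an animal; the numbers used here follow accession order and only name a library. Depth limits Mnx1 most, with 2 to 6 reads in 5 ipsilateral SNI libraries. The causes of the changes below were not tested. With libraries titled 33 to 48 only, genes called numbered 67 for SNI against sham on the ipsilateral side, 175 between sides in SNI, 33 for side by surgery and 20 for sex. In the same libraries, sham side estimates were 0.045 (Slc18a3), 0.019 (Isl1) and 0.17 (Prph), and the surgery by sex estimate of Ache was 0.029. Without a filter on low counts, 1 gene was called between sham sides.

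The following settings were chosen after seeing the data. With Chat as a covariate, 336 genes were called between sides in SNI, 351 with ipsilateral SNI female replicate 1 left out as well. Without the covariate, 1944 were called for the side difference in females, 840 when that library is left out, and 323 for the side difference in males. With the covariate, ipsilateral SNI against sham gave Slc18a3 0.17, Isl1 0.11 and Prph 0.54 (0.22, 0.089 and 0.63 without that library). Between sides in SNI it gave Slc18a3 0.31 and Prph 0.77 (0.34 and 0.84), and for side by surgery Slc18a3 0.11 and Prph 0.49. The side difference of Prph in males was 0.63.

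Centred on group means, r with Chat was 0.19 for Ache and 0.41 for ventral interneurons. Without the 2 farthest libraries it was -0.22 for sensory neuron genes.

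Leaving out 1 library at a time, genes called ranged over 266 to 433 (ipsilateral), 0 to 1 (contralateral), 617 (without contralateral SNI female replicate 3) to 2110 (without contralateral SNI female replicate 1) between sides in SNI, 0 to 1 between sham sides, 100 to 155 (interaction), 54 to 134 (sex) and 0 to 1 (surgery by sex). Estimates that changed sign were contralateral Mnx1 (-0.049 to 0.58), sham side Slc5a7 (-0.54 to 0.018), Slc18a3 (-0.45 to 0.13), Mnx1 (-0.55 to 0.0092), Isl1 (-0.29 to 0.0088), Prph (-0.41 to 0.22) and Calcb (-0.44 to 0.12), sex Slc18a3 (-0.10 to 0.23), Isl1 (-0.051 to 0.11), Prph (-0.31 to 0.089) and Calcb (-0.11 to 0.20), and surgery by sex Isl1 (-0.49 to 0.15), none of them called. Mnx1 on the ipsilateral side, not called at prior count 2, was called at prior count 0.5 (adjusted p = 0.0427), without robust empirical Bayes (0.0205) and with all 24 libraries in the limma fit (0.0164).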
